A study of Homo sapiens with 6 samples.

Results

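Oxidative phosphorylation is the process by which mitochondria pass electrons from NADH and succinate along complexes I to IV to oxygen and use the resulting proton gradient to make ATP at complex V. Its subunits come from 2 genomes. Mitochondrial DNA encodes 13 of them, all of which sit in the membrane cores of complexes I, III, IV and V, and the other subunits, including the whole of complex II, are encoded in the nucleus, translated in the cytosol and imported. Mitochondrial genes are transcribed from both strands of the circular genome as long polycistronic RNAs that are then cut into single mRNAs, so the genes of 1 strand share their transcription, whereas each nuclear gene has its own promoter.

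The expression of these genes was examined in TE1 cells, a human esophageal squamous cell carcinoma (ESCC) line, after overexpression of fibrinogen-like protein 1 (FGL1), a secreted protein of the fibrinogen family. Cells infected with a lentivirus carrying the FGL1 sequence (FGL1-OE, 3 libraries) were compared with cells labelled WT, which the study describes as infected with a lentivirus carrying random nonsense sequences (NC, 3 libraries), and both lines were stable lines selected with puromycin. RNA was enriched with oligo(dT) beads and sequenced. The labels also name rRNA removal with the RiboZero kit in place of poly(A) selection, and which libraries were made by which step is not given in the sources used here. The mitochondrial values below carry this doubt, and its part in them was not tested. Expression is given in FPKM, which is read density per transcript length and per library size. The sources used here do not say that the 3 libraries of a group came from separate cultures, so every p-value below measures the spread between these libraries only, which may be technical. In RNA from a whole culture, fewer transcripts in every cell and fewer cells with the transcript cannot be told apart.

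The oxidative phosphorylation (OXPHOS) genes were taken by name. They were the genes starting with MT-, UQCR, COX4 to COX8 and ATP5, together with SDHA to SDHD and CYC1. Names of NDUF followed by A, B, C, S or V and a number were also taken. This gave 91 of 12180 listed genes, after 2 names that join a pair of genes were left out. NDUFAB1, a subunit of complex I, was outside this rule and is described with the lists. Mitochondrial DNA encoded 13 of the 91 and the nucleus 78. Of the nuclear genes 36 belonged to complex I, 4 to complex II, 10 to complex III, 11 to complex IV (with NDUFA4, a complex IV subunit in spite of its name) and 15 to complex V. The remaining 2 nuclear genes, COX7A2L and ATP5S, encode associated factors and were kept apart from the complexes. All 91 passed the filter of a mean of 0.5 FPKM, as did 12017 genes in all. The alternative forms COX4I2, COX6A2, COX6B2, COX7A1 and NDUFA4L2 were not in the list.

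FGL1 was at 0.0202, 0 and 0.106 FPKM in NC and reached 33.5, 39.3 and 39.9 FPKM in FGL1-OE, so the labels and the targeted gene matched. It was the only gene of 12017 with an adjusted p under 0.05 in limma (adjusted p = 1.29e-05). Of the epithelial markers, squamous and general, 9 of 12 were listed, with a sum of 294 to 344 FPKM in NC and 395 to 415 FPKM in FGL1-OE. KRT14, KRT6B and SOX2 were not listed. The highest were KRT6A (108 to 197 FPKM) and EPCAM (90.5 to 122 FPKM), while KRT5 was at 4.27 to 6.24 FPKM and TP63 at 0.299 to 0.779 FPKM. Of the 8 markers that were tested 6 had a log2 fold change above 0, where 53.7% of all genes tested did. KRT6A and CDH1 had an unadjusted p under 0.05 in limma and were higher in FGL1-OE, where 1.21% of all genes tested were. None of the 8 had an adjusted p under 0.05. Of the fibroblast markers 3 of 6 were listed, with a sum of 2.29 to 8.27 FPKM, of the leukocyte markers 1 of 5 (CD68), at 2.25 to 5.73 FPKM, and of the endothelial markers 0 of 4.

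The control libraries NC 1 and NC 2 stood apart from the other libraries and from each other. Across 11786 genes, the difference NC 2 minus NC 1 in log2(FPKM + 1) followed the GC content of the transcript, with a Spearman rho of -0.788. This correlation is across genes of the same pair of libraries and is given as a description. NC 1 and NC 2 were also the extremes of many OXPHOS genes, and values without one or the other are given below for the mitochondrial genes and for the nuclear genes with the largest differences.

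The mitochondrially encoded genes were among the most abundant RNAs of every library and differed far more between the 3 NC libraries than between NC and FGL1-OE. They held 4.76%, 20.1% and 8.51% of the summed FPKM of all listed genes in NC 1, NC 2 and NC 3. In FGL1-OE 1, 2 and 3 they held 12.5%, 12.8% and 11.9%. The mean share was 11.1% ± 8.0 (SD, n = 3) in NC and 12.4% ± 0.441 (SD, n = 3) in FGL1-OE, so the 3 FGL1-OE libraries lay close together between NC 3 and NC 2. The nuclear encoded genes held 1.92%, 1.63% and 1.86% in NC and 1.96%, 1.74% and 1.75% in FGL1-OE.

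Set against each other, the summed mitochondrial FPKM was 2.49, 12.4 and 4.57 times the summed nuclear OXPHOS FPKM in NC 1, NC 2 and NC 3. It was 6.38, 7.38 and 6.84 times in the FGL1-OE libraries. The control group thus held both the lowest and the highest balance of the 2 genomes in RNA, and the FGL1-OE values fell between them. The same held within each complex that has subunits from both genomes. The median mitochondrial FPKM over the median nuclear FPKM of complex I was 21.4, 126 and 38.4 in NC and 52.7, 62.7 and 57.2 in FGL1-OE. For complex IV it was 56.2, 138 and 74.3 in NC and 107, 104 and 94.3 in FGL1-OE, and for complex V 17, 83.7 and 25.1 in NC and 33.4, 38.8 and 37.1 in FGL1-OE. The sizes of these ratios carry a limit. Gene FPKM equalled transcript FPKM for the mitochondrial genes, but for some nuclear genes it lay far below. COX6A1, with 1 listed transcript, was at 209 FPKM as a gene and 490 FPKM as a transcript in NC 1. The part of this in the ratios and in the shares given above was not tested.

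**Figure D1:**
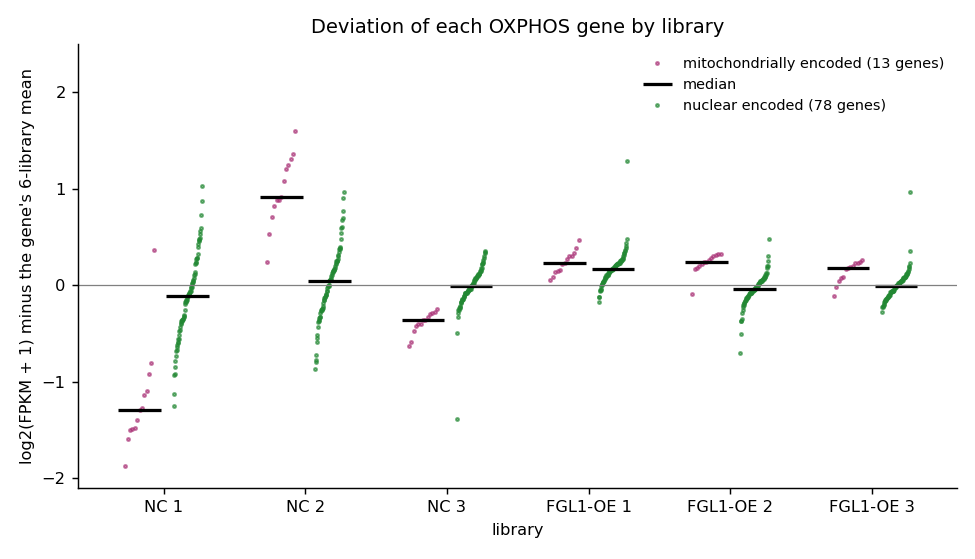
Each dot is an OXPHOS gene in a library, as log2(FPKM + 1) minus the mean of that gene over the 6 libraries (y axis), for 13 mitochondrially encoded and 78 nuclear encoded genes, and black lines are medians. The mitochondrial medians were -1.29, 0.91 and -0.36 in NC 1 to NC 3 and 0.17 to 0.24 in FGL1-OE, whereas the nuclear medians stayed between -0.11 and 0.17.

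By mean FPKM over the 6 libraries complex IV contributed the most abundant mitochondrial mRNAs, although in NC 2 MT-ATP8 stood above MT-CO2 and MT-CO3. MT-CO1, the catalytic subunit that holds the oxygen-reducing centre (chrM:5904-7445), was at 1758, 6333 and 3172 FPKM in NC against 4769, 4571 and 4409 FPKM in FGL1-OE. MT-CO2, which receives electrons from cytochrome c, was at 2255, 5680 and 3071 FPKM in NC against 4955, 4588 and 4186 FPKM in FGL1-OE. MT-CO3, the third core subunit, was at 1130, 5915 and 2379 FPKM in NC against 4111, 3944 and 3765 FPKM in FGL1-OE. In all 3 genes NC 1 was lowest and NC 2 highest, and every FGL1-OE library lay between NC 3 and NC 2. MT-CO3 had the largest log2 fold change of the 13 genes, 0.65 (SE 0.52), with an adjusted p of 1.0 in limma and an exact two-sided permutation p of 0.4, where 0.1 is the smallest value 3 against 3 libraries allow. Without NC 1 the value of MT-CO3 was 0.07, and without NC 2 it was 1.26, where MT-ATP8 had the largest of the 13 (1.43). MT-CO1 had a log2 fold change of 0.48 (SE 0.41), which was 0.03 without NC 1 and 0.96 without NC 2. MT-CO2 had 0.42 (SE 0.32), which was 0.13 and 0.79 without them.

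Complex V has 2 mitochondrial subunits, MT-ATP6, which forms the proton channel with the nuclear c-ring, and MT-ATP8, a short membrane subunit beside it. They are made from 1 mRNA, and their reading frames overlap. MT-ATP8 is shown whole (chrM:8366-8572, plus strand, coordinates identical in GRCh37 and GRCh38), with the 46 bases it shares with MT-ATP6 in capitals, because it was the OXPHOS gene with the widest gap between NC libraries and because reads from the shared bases cannot be told apart.
MT-ATP8: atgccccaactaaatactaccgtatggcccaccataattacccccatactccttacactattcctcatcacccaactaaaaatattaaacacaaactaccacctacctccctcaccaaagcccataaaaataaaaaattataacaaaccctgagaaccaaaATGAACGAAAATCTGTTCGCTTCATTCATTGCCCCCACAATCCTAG
MT-ND4L, which overlaps MT-ND4 in the same way, is shown for comparison (chrM:10470-10766, plus strand), with the 7 shared bases in capitals.
MT-ND4L: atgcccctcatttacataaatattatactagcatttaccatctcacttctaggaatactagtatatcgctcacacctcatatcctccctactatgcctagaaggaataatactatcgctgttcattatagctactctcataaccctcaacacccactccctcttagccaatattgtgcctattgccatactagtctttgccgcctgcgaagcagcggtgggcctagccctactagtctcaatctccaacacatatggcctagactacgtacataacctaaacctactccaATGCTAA
MT-ATP8 was at 548, 6074 and 1444 FPKM in NC against 2432, 2449 and 2301 FPKM in FGL1-OE. NC 2 was 11.1-fold above NC 1, while the 3 FGL1-OE values differed from one another by little and lay between NC 3 and NC 2. The log2 fold change was 0.50 (SE 0.74). MT-ATP6 was at 225, 1169 and 411 FPKM in NC against 615, 680 and 622 FPKM in FGL1-OE, with a log2 fold change of 0.42 (SE 0.52). MT-ATP8 therefore had a higher FPKM than its mRNA partner MT-ATP6 in every library, and took 5.45% of the mitochondrial FPKM in NC 1 and 13.3% in NC 2. MT-ATP8 is 207 bases long, and the part of this short length in the gap was not tested. How reads of the shared bases were divided between the genes is not given in the sources used here.

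Complex I, which takes electrons from NADH and pumps protons, has 7 mitochondrial subunits that form its membrane arm. MT-ND4 was at 711, 4817 and 1550 FPKM in NC against 1950, 2151 and 1978 FPKM in FGL1-OE, the smallest log2 fold change (0.21, SE 0.60) among the genes that NC 2 and NC 1 separated. MT-ND1 was at 713, 3201 and 1381 FPKM in NC against 2021, 2079 and 2025 FPKM in FGL1-OE, with a log2 fold change of 0.48 (SE 0.47). The FGL1-OE libraries agreed to within an SD of 32.7 FPKM for this gene, against 1287 FPKM for NC. MT-ND2 was at 410, 2869 and 900 FPKM in NC against 1288, 1367 and 1300 FPKM in FGL1-OE. MT-ND4L was at 912, 3601 and 1645 FPKM in NC against 2405, 2211 and 1925 FPKM in FGL1-OE. MT-ND3 was at 439, 1471 and 553 FPKM in NC against 1153, 935 and 856 FPKM in FGL1-OE. These 3 genes kept the order NC 1, NC 3, NC 2, with log2 fold changes of 0.37, 0.31 and 0.46. MT-ND5, the largest of the 7, was at 183, 1218 and 387 FPKM in NC against 546, 642 and 606 FPKM in FGL1-OE (log2 fold change 0.43, SE 0.59). MT-CYB, the single mitochondrial subunit of complex III and the site of its quinone reactions, was at 408, 2839 and 1003 FPKM in NC against 1352, 1525 and 1441 FPKM in FGL1-OE (log2 fold change 0.45, SE 0.60).

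MT-ND6 was the exception. It is the only one of the 13 genes transcribed from the other strand, the light strand (chrM:14149-14673, minus strand). It was at 358, 328 and 179 FPKM in NC against 327, 261 and 256 FPKM in FGL1-OE. NC 1, the lowest library for the other 12 genes, was the highest for MT-ND6, and NC 2 was 0.918 times NC 1. Its share of mitochondrial FPKM was 3.56% in NC 1 and between 0.721% and 1.17% in the other 5 libraries. The log2 fold change was 0.02 (SE 0.28). The library kit keeps strand, but whether the counting used it is not given in the sources used here, and without it reads of MT-ND6 and of transcripts from the opposite strand cannot be told apart.

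**Figure D2:**
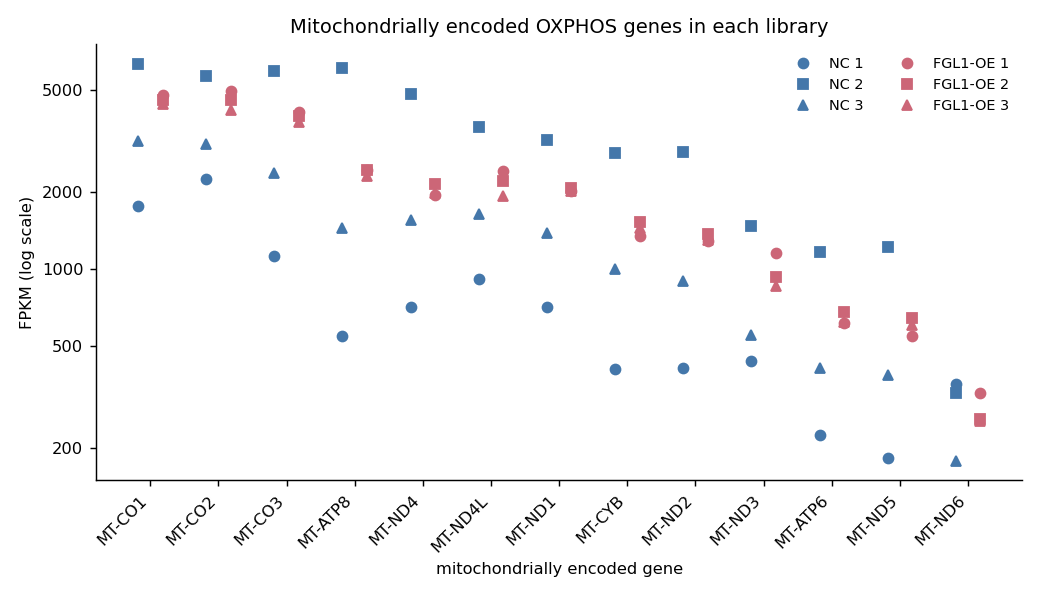
FPKM of the 13 mitochondrially encoded genes (log y axis) in the 3 NC and 3 FGL1-OE libraries, genes in order of mean FPKM. NC 1 (circle) was lowest and NC 2 (square) highest for 12 of 13 genes, MT-ND6 excepted, and the 3 FGL1-OE points lay between the lowest and the highest NC point for 13 of 13.

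Taken over the 13 mitochondrial genes, the FGL1-OE mean was above the NC mean on the log2 scale for 13 of 13, against 53.7% of all genes tested, with a median log2 fold change of 0.43 (range 0.02 to 0.65). In plain FPKM the NC mean was the higher for MT-ND2 (1393 against 1318), MT-ND4 (2359 against 2026), MT-ND6 (288 against 281) and MT-ATP8 (2689 against 2394). It was the lower for the rest of the 13. The median SE was 0.52, so the typical gene moved by less than its error. None of the 13 had an unadjusted p under 0.05 in either direction, where 1.21% of all genes tested were higher and 0.807% lower, and none had an adjusted p under 0.05, where 0.00832% of genes did (1 gene, FGL1). For 13 of 13 genes every FGL1-OE library lay inside the range of the NC libraries, which was so for 57.0% of all genes. The median SD of log2(FPKM + 1) within a group was 1.20 for NC and 0.0785 for FGL1-OE, and the NC value was the larger for 13 of 13 genes and for 84.1% of all genes.

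The direction of the mitochondrial difference rested on which control library was counted. Without NC 1 the median log2 fold change of the 13 genes was -0.12, and 8 of them, MT-ND1, MT-ND2, MT-ND4, MT-ND4L, MT-ND5, MT-CYB, MT-ATP6 and MT-ATP8, had values below 0. Without NC 2 the median was 1.04. In that fit 12 of the 13 genes, all but MT-ND6, had an unadjusted p under 0.05 and were higher in FGL1-OE, where 11.2% of all genes were. No adjusted p of these genes was under 0.05, and the lowest was 0.194 in limma. MT-ND6 had a log2 fold change of -0.29 without NC 3 and of -0.09 without FGL1-OE 1.

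Within NC, 12 of 13 mitochondrial genes were at least 2-fold higher in NC 2 than in NC 1 on the FPKM + 1 scale, against 9.88% of all genes and 13.8% of the 3606 other genes with a GC content in the range of the mitochondrial genes (39.6% to 47.7%). These other genes matched in GC content only. Their median was 5.84 FPKM and 3282 bases, against 1903 FPKM and 784 bases for the mitochondrial genes. The added 1 FPKM shrinks the fold of low genes more. NC 3 was intermediate for the same 12 mitochondrial genes, an order that 40.0% of all genes had. The fold of NC 2 over NC 1 ran from 2.52 for MT-CO2 to 11.1 for MT-ATP8 among these 12. Removal of each library's trend with GC content and transcript length, an adjustment chosen after the data were seen, changed the median difference NC 2 minus NC 1 of the 13 genes from 2.38 to 1.91 on the log2 scale. That of the 78 nuclear genes changed from 0.13 to 0.045. The share of the cytosolic ribosomal protein genes had the other order, with 10.1%, 6.46% and 8.84% of the listed FPKM in NC 1, NC 2 and NC 3. In FGL1-OE it was 7.43% to 8.32%. This share and the mitochondrial share are parts of the same sum and are not independent. The median deviation of the ribosomal protein genes from their 6-library mean, in log2(FPKM + 1), was -0.017, -0.12 and 0.11 in NC 1, NC 2 and NC 3. Within NC this median was thus highest in NC 3. The part of the ribosomal protein genes in the result was not tested.

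Among the nuclear OXPHOS genes the NC 2 and NC 1 libraries differed in both directions. NC 2 was at least 2-fold above NC 1 for 10 of 78 genes, or 12.8%, against 9.88% of all genes, and NC 1 at least 2-fold above NC 2 for 6 of 78, or 7.69%, against 9.08%. NC 3 lay between them with NC 2 highest for 30 of 78 genes, or 38.5%, and NC 1 highest for 17 of 78, or 21.8%, where 40.0% and 30.0% of all genes had these orders. The difference NC 2 minus NC 1 ran with GC content over the 78 genes (Spearman rho -0.536, across genes and given as a description) and not over the 13 mitochondrial genes (rho -0.0275), whose GC contents span a narrow range. To show the contrast in composition, the first 120 bases of the coding sequence of 4 nuclear genes are given from GENCODE v29, with G and C in capitals. ATP5C1, the gamma subunit that turns inside complex V, and ATP5J had transcripts of 43.6% GC and were 2.71-fold and 2.95-fold higher in NC 2. ATP5D, the delta subunit at the foot of the same rotor (68.1% GC), and NDUFB7 of complex I (65.0% GC) were at 0.358 and 0.330 times their NC 1 value in NC 2.
ATP5C1: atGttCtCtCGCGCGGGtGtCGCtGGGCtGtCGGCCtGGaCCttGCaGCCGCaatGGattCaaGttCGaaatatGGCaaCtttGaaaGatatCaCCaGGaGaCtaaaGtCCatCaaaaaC
ATP5J: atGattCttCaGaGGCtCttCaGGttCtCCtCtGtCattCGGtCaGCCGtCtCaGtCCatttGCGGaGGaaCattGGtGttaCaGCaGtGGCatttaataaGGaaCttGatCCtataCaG
ATP5D: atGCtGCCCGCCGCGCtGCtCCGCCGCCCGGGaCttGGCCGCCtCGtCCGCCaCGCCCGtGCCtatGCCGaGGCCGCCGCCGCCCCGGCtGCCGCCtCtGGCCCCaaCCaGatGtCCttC
NDUFB7: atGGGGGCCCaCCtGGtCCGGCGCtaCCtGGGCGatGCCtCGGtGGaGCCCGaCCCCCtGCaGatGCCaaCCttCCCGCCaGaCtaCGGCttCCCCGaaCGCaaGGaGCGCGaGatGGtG
The G and C share of these stretches was 50.0% in ATP5C1, 45.8% in ATP5J, 77.5% in ATP5D and 69.2% in NDUFB7. The values of ATP5C1 were 22.8, 61.6 and 37.0 FPKM in NC against 47.5, 43.9 and 49.4 FPKM in FGL1-OE. ATP5D had the mirrored order, at 19.9, 7.11 and 15.2 FPKM in NC against 14.1, 11.8 and 12.3 FPKM in FGL1-OE. In both genes the FGL1-OE libraries lay inside the NC range. COX7C, a small complex IV subunit (41.6% GC), showed the widest gap among the subunits, at 9.86, 42.9 and 25.2 FPKM in NC, and was at 33.4, 24.5 and 26.2 FPKM in FGL1-OE. ATP5C1, ATP5D and COX7C were named after their values were seen.

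**Figure D3:**
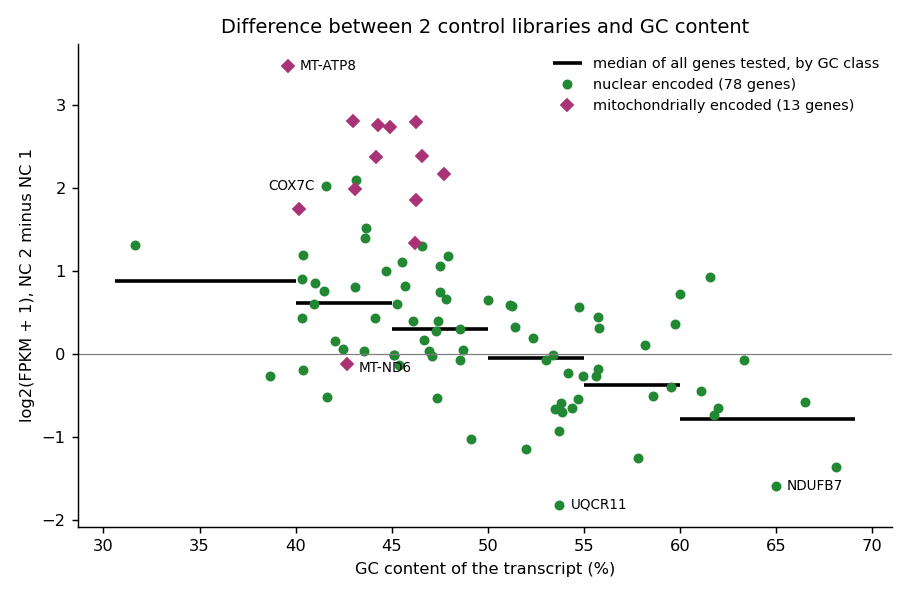
Difference NC 2 minus NC 1 in log2(FPKM + 1) (y axis) against the GC content of the transcript in percent (x axis) for the 13 mitochondrially encoded and 78 nuclear encoded OXPHOS genes, with the median of all genes tested in each GC class as black lines. The medians of all genes ran from 0.88 below 40% GC to -0.79 at 60% and above, and the mitochondrial genes other than MT-ND6 stood above them at 1.33 to 3.47.

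The nuclear encoded OXPHOS genes lay close to the genome as a whole. Their median log2 fold change was 0.09, beside 0.016 for all genes tested, and 49 of 78 had a value above 0, or 62.8%, against 53.7% of all genes. The values ran from -0.32 to 1.03 with a median SE of 0.20. None of the 78 had an adjusted or an unadjusted p under 0.05. By complex, the median was 0.04 over 36 genes of complex I, -0.04 over 4 of complex II, 0.07 over 10 of complex III, 0.14 over 11 of complex IV and 0.13 over 15 of complex V. In complex V 13 of 15 genes had a value above 0. The difference between the mitochondrial and the nuclear median was 0.34 on the log2 scale, and -0.16 without NC 1 and 0.94 without NC 2.

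**Figure D4:**
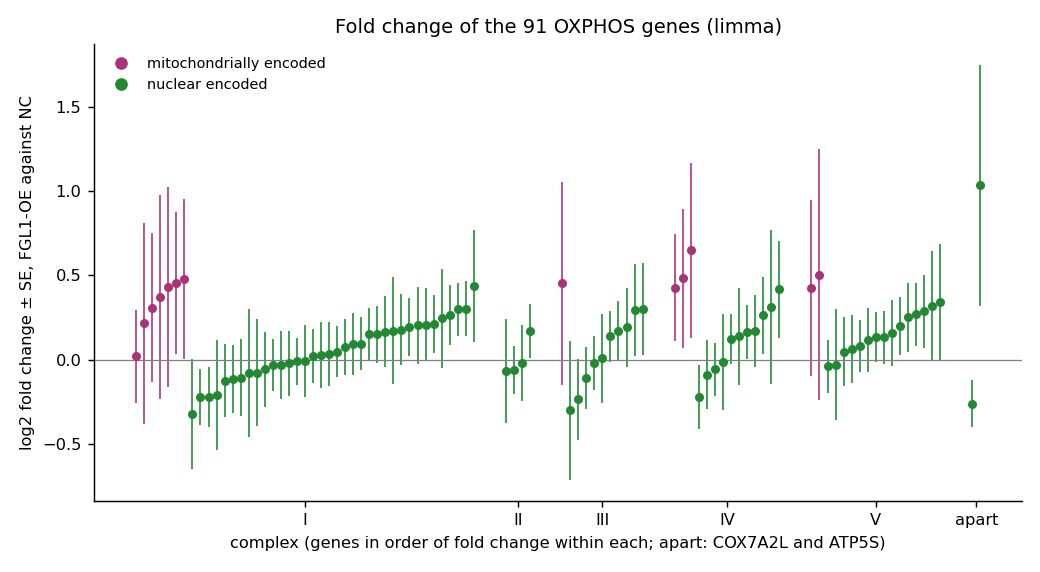
Log2 fold change of FGL1-OE against NC with its limma SE (bars) for the 91 OXPHOS genes, grouped by complex and ordered by value within each genome. The mitochondrially encoded genes lay between 0.02 and 0.65 with wide errors (median SE 0.52), and the nuclear genes between -0.32 and 1.03 (median SE 0.20).

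In complex I the most abundant nuclear gene was NDUFS5, an accessory subunit on the intermembrane side (chr1:39491990-39500308, GRCh37, as for the nuclear coordinates below). It was at 359, 341 and 405 FPKM in NC against 441, 377 and 363 FPKM in FGL1-OE. These groups overlapped, and the log2 fold change was 0.09 (SE 0.16). NDUFB7, an accessory subunit that is also on the intermembrane side (chr19:14676890-14682874), was at 324, 107 and 234 FPKM in NC against 228, 167 and 181 FPKM in FGL1-OE, with NC 1 highest and NC 2 lowest. NDUFA13, an accessory subunit also known as GRIM-19, had the largest value of complex I, 0.44 (SE 0.33). It was at 14.8, 29.1 and 35.4 FPKM in NC against 41.0, 25.5 and 37.4 FPKM in FGL1-OE. NDUFB9, a membrane arm accessory subunit, had the lowest, -0.32 (SE 0.33), with 97.1, 50.4 and 41.6 FPKM in NC against 58.7, 36.8 and 47.6 FPKM in FGL1-OE. Both values rested on NC 1, without which they were 0.08 and 0.03, while without NC 2 they were 0.54 and -0.43.

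Complex II, the succinate dehydrogenase that also works in the citric acid cycle, had the narrowest range of log2 fold changes of the 5 complexes among its nuclear genes. It also had the fewest nuclear genes, 4 against 10 to 36, and a range narrows with fewer genes. SDHA, the flavoprotein that oxidises succinate, was at 43.9, 37.2 and 44.3 FPKM in NC against 40.4, 39.3 and 39.9 FPKM in FGL1-OE. SDHB, the iron-sulfur subunit, was at 56.0, 69.1 and 72.8 FPKM in NC against 77.9, 69.1 and 75.2 FPKM in FGL1-OE. SDHC, a membrane anchor, was at 5.08, 13.9 and 8.19 FPKM in NC against 8.87, 7.09 and 8.12 FPKM in FGL1-OE. The log2 fold changes were -0.06, 0.17 and -0.07, and that of SDHC was -0.38 without NC 1 and 0.27 without NC 2.

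In complex III UQCRH, the hinge protein of the cytochrome c1 side, was the most abundant nuclear gene, at 229, 158 and 211 FPKM in NC against 198, 177 and 173 FPKM in FGL1-OE. Its near copy UQCRHL was listed at 1.07 to 1.70 FPKM, and reads shared by the pair could be divided between them in either way. UQCRQ, a small subunit that supports cytochrome b, was at 138, 67.3 and 103 FPKM in NC against 114, 93.6 and 91.0 FPKM in FGL1-OE. The largest value of the complex was that of UQCR10 (0.30, SE 0.27), with 41.8, 88.2 and 60.3 FPKM in NC against 87.3, 71.4 and 67.4 FPKM in FGL1-OE. This value was 0.04 without NC 1 and 0.57 without NC 2. UQCR11, another small subunit, had the lowest (-0.30, SE 0.41), with 104, 28.8 and 58.9 FPKM in NC against 53.7, 42.3 and 41.4 FPKM in FGL1-OE, and was 0.14 without NC 1 and -0.77 without NC 2. These 2 genes of the same complex thus had opposite orders of the NC libraries, with FGL1-OE inside the NC range for UQCR10 and UQCR11 alike.

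In complex IV COX6A1, the widespread form of subunit VIa, was at 209, 132 and 157 FPKM in NC against 176, 142 and 145 FPKM in FGL1-OE. COX8A was at 167, 117 and 116 FPKM in NC against 124, 105 and 108 FPKM in FGL1-OE, the lowest value of the complex (-0.22, SE 0.19, and -0.05 without NC 1). COX5A, which binds the matrix face of the complex, had the highest (0.42, SE 0.29), with 36.0, 83.1 and 53.8 FPKM in NC against 83.0, 67.0 and 70.0 FPKM in FGL1-OE, and was 0.12 without NC 1 and 0.72 without NC 2. All 3 had overlapping groups. The forms COX4I1, COX6B1 and COX7A2 and NDUFA4, whose counterparts from other tissues were not listed, had log2 fold changes of 0.17, 0.16, -0.06 and 0.14. The FGL1-OE values of NDUFA4 were 44.6, 44.1 and 44.4 FPKM, against 27.8, 64.6 and 36.1 FPKM in NC.

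In complex V ATP5B, the catalytic beta subunit (chr12:57031959-57039852), was at 153, 228 and 206 FPKM in NC against 249, 219 and 232 FPKM in FGL1-OE (log2 fold change 0.27, SE 0.19, and 0.10 without NC 1). ATP5H, a subunit of the peripheral stalk, was at 55, 54.5 and 58.7 FPKM in NC against 71.7, 56.0 and 57.9 FPKM in FGL1-OE. ATP5J, coupling factor 6 of the same stalk (chr21:27088815-27107984), had the largest value of the complex (0.34, SE 0.34), and its FGL1-OE libraries, at 40.2, 40.4 and 38.1 FPKM, lay inside the range of NC, at 18.0, 53.3 and 30.6 FPKM. Its value was -0.03 without NC 1 and 0.73 without NC 2. ATP5G2, 1 of 3 genes for the same mature c-ring subunit, was at 15.6, 16.9 and 13.5 FPKM in NC against 16.2, 14.3 and 13.9 FPKM in FGL1-OE, the lowest value of the complex (-0.04, SE 0.15).

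Of the 78 nuclear genes taken by name only 2 had groups that did not overlap, and both were named after their values were seen. NDUFB10, a membrane arm subunit of complex I (chr16:2009509-2011976), was at 29.6, 38.2 and 32.7 FPKM in NC against 43.6, 38.4 and 41.7 FPKM in FGL1-OE. The lowest FGL1-OE library stood just above the highest NC library. The log2 fold change was 0.30 (SE 0.16), with an adjusted p of 1.0 in limma and an exact two-sided permutation p of 0.1, the smallest possible. It was 1 of 78 genes higher without overlap, or 1.28%, against 4.09% of all genes. ATP5S, a factor linked to complex V whose gene is also known as DMAC2L (chr14:50779044-50802276), was at 1.75, 1.40 and 1.48 FPKM in NC against 1.13, 1.08 and 1.16 FPKM in FGL1-OE. The fitted log2 fold change was -0.26 (SE 0.14), with an exact permutation p of 0.1, and it was 1 of 78 lower without overlap, against 3.06% of all genes.

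COX7A2L, which encodes a factor that joins complexes III and IV into supercomplexes (chr2:42560686-42652228), was named after its values were seen because it had the largest SE of the nuclear genes. It was at 5.98, 28.7 and 4.84 FPKM in NC against 36.3, 8.35 and 28.8 FPKM in FGL1-OE. The values fell into a low and a high set, each holding libraries of both groups, so the log2 fold change of 1.03 had an SE of 0.71 (exact permutation p = 0.2). Its main transcript, ENST00000234301, had the same pattern, at 20.1, 94.1 and 13.5 FPKM in NC against 99.6, 29.9 and 95.9 FPKM in FGL1-OE. In every library this transcript stood above the value of its gene, so gene and transcript FPKM are not on the same scale. How the gene values were computed is not given in the sources used here.

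**Figure D5:**
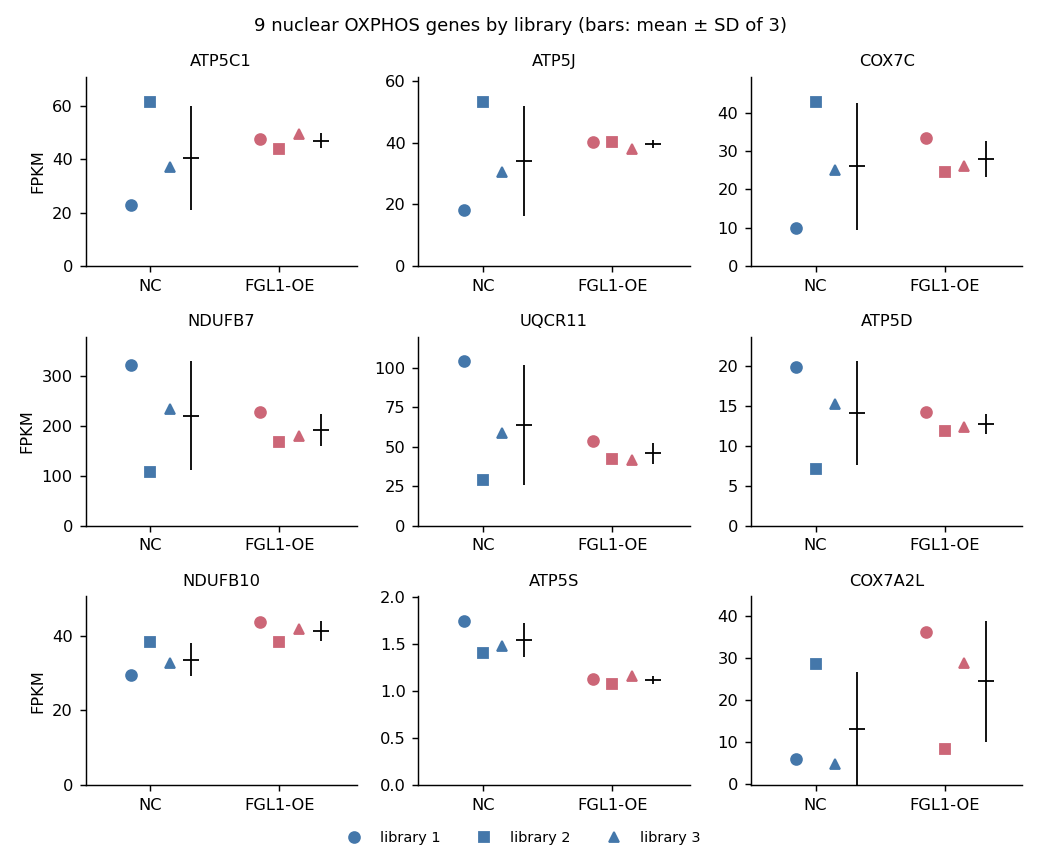
FPKM of 9 nuclear OXPHOS genes in the NC and FGL1-OE libraries (circle, square and triangle for libraries 1, 2 and 3), with the mean and SD of 3 libraries as bars. The top row shows genes highest in NC 2, the middle row genes highest in NC 1, and the bottom row the 2 genes without overlap, NDUFB10 and ATP5S, and COX7A2L.

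Transcripts of the OXPHOS genes were listed separately, 258 in all, of which 247 were tested. The FPKM of a transcript could exceed that of its gene, so the gene and transcript values below are not whole and part. Of the 78 nuclear genes 18 had 1 listed transcript and 60 had 2 or more, up to 9. None had an adjusted p under 0.05 in limma, where 0.0165% of all transcripts did. At an unadjusted p under 0.05, 5 of 247 were higher, or 2.02%, against 2.05% of all transcripts, and 3 were lower, or 1.21%, against 1.48%. In both directions the OXPHOS share was near that of all transcripts. The groups did not overlap for 14 higher transcripts, or 5.67%, against 4.65% of all, and for 8 lower ones, or 3.24%, against 3.57%. The largest difference by size over error was that of ENST00000233627 of NDUFS7, a subunit that carries an iron-sulfur cluster next to the quinone site of complex I. It was at 6.34, 7.19 and 8.64 FPKM in NC against 2.54, 0.471 and 0.980 FPKM in FGL1-OE (log2 fold change -1.94, SE 0.37, adjusted p = 0.639 in limma). The 2 groups did not overlap, and this transcript made up 55.5% of the listed NDUFS7 transcript FPKM in NC and 31.4% in FGL1-OE as means. The groups overlapped in the NDUFS7 gene value, at 5.22, 3.17 and 4.85 FPKM in NC against 4.69, 3.82 and 4.26 FPKM in FGL1-OE. ENST00000342751 of SDHC was at 2.21, 5.03 and 3.27 FPKM in NC against 19.7, 6.11 and 15.5 FPKM in FGL1-OE (log2 fold change 1.62, SE 0.48), while the groups overlapped in the gene value. ENST00000391764 of NDUFA3, an accessory subunit of complex I, had listed values of 0, 0 and 3.99 FPKM in NC against 4.89, 8.27 and 4.28 FPKM in FGL1-OE. The other 4 transcripts named by rule were 3 with higher values, from COX6C (1.78), UQCRC2 (1.32) and COX5A (0.90), and 1 with a lower value, from NDUFB2 (-0.75), each a minor form of its gene. The third transcript with a lower value, ENST00000605997 of NDUFB1 (named after its values were seen), was at 67.3, 0.0163 and 81.1 FPKM in NC against 0.0258, 0.00703 and 0.0584 FPKM in FGL1-OE. NC 2 thus went with FGL1-OE for this form, while the NDUFB1 gene was at 11.9, 15.9 and 14 FPKM in NC against 19.6, 16.8 and 14.5 FPKM in FGL1-OE.

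Genes that serve the OXPHOS system without being named as subunits were examined as lists. Of 57 listed entries for 56 assembly factors, which build the complexes and insert their cofactors (SCO2 is listed under 2 identifiers), 0 had an adjusted p under 0.05 and 0 an unadjusted p under 0.05 in limma, where 1.21% of all genes were higher and 0.807% lower at an unadjusted p under 0.05, and the median log2 fold change was 0.07. The 35 genes for replication, transcription and handling of mitochondrial RNA gave 0 and 0 likewise, with a median of 0.07, and the 7 regulators of mitochondrial biogenesis 0 and 0 with 0.06. The groups did not overlap for 3 assembly factors with higher values in FGL1-OE (COX16, COX19 and TIMMDC1) and 3 with lower values (SDHAF4, UQCC1 and UQCC2), or 5.26% of the entries each way against 4.09% and 3.06% of all genes, and for 0 genes of the mitochondrial RNA and biogenesis lists. These 6 were named after their values were seen. TFAM, which packages mitochondrial DNA and starts its transcription, was at 10.6, 28.0 and 15.7 FPKM in NC against 19.2, 20.8 and 22.3 FPKM in FGL1-OE. POLRMT, the mitochondrial RNA polymerase, had the opposite order in NC, at 22.2, 5.94 and 13.9 FPKM, and was at 10.5, 9.14 and 8.48 FPKM in FGL1-OE. TFAM had the order NC 1 below NC 3 below NC 2, as 40.0% of all genes did, and POLRMT the reverse, as 30.0% did. LRPPRC and SLIRP, the pair that stabilises mitochondrial mRNAs, had log2 fold changes of 0.11 (SE 0.21) and 0.22 (SE 0.17). Cytochrome c (CYCS), the carrier between complexes III and IV, was at 24.7, 73.2 and 45.4 FPKM in NC against 61.8, 61.3 and 60.9 FPKM in FGL1-OE, with a log2 fold change of 0.48 that was 0.09 without NC 1 and 0.85 without NC 2. NDUFAB1, the acyl carrier protein of complex I, was at 43.5, 37.6 and 45.3 FPKM in NC against 64.3, 50.2 and 46.3 FPKM in FGL1-OE. Its groups did not overlap (log2 fold change 0.33, SE 0.18, adjusted p = 1.0 in limma, exact permutation p = 0.1). It was 1 of 4 listed subunits and carriers outside the naming rule that were higher without overlap, and 0 were lower. Of all genes 4.09% were higher and 3.06% lower without overlap. NRF1, a transcription factor for many nuclear OXPHOS genes, was at 4.75, 4.02 and 5.88 FPKM in NC against 6.55, 5.39 and 6.08 FPKM in FGL1-OE.

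The promoters of the nuclear genes were searched for 3 motifs that are known from OXPHOS genes, in the window from 250 bases before to 50 bases after the start of transcription in RefSeq on GRCh38.p14. A window was found for 62 of the 78 nuclear genes. Exact letters were sought on both strands, a palindrome of 10 letters for NRF1 (the first run of capitals in the SDHD window), CCGGAAG for ETS factors such as GABPA, and AAGATGGC for YY1, and the last 3 letters of the ETS string can also be the first 3 of the YY1 string, which was so in 0 of these 62 windows. The NRF1 string was in 4 of 62 windows, or 6.45%, against 1.75% of 15843 windows of protein-coding genes. The ETS string was in 19, or 30.6%, against 14.2%, and the YY1 string in 11, or 17.7%, against 3.91%. At least 1 of the 3 was in 31 of 62, or 50.0%, against 18.5%. The 2 windows below are printed 5′ to 3′ on the strand of the gene, with matches in capitals, because each holds 2 of the motifs and both genes are subunits of complexes described above. They are SDHD, the second membrane anchor of complex II (chr11:112086623-112086922, plus strand), with the NRF1 string and the reverse complement of the ETS string, and ATP5J (chr21:25735005-25735304, minus strand), with the YY1 and ETS strings. SDHB, whose window is not printed, also held 2 of the motifs, the ETS and YY1 strings.
SDHD: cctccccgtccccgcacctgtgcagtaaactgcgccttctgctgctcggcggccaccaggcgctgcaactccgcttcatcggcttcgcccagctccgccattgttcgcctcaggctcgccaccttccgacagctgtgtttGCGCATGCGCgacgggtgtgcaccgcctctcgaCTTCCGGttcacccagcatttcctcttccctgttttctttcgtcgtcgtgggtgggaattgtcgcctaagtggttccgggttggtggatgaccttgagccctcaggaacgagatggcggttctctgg
ATP5J: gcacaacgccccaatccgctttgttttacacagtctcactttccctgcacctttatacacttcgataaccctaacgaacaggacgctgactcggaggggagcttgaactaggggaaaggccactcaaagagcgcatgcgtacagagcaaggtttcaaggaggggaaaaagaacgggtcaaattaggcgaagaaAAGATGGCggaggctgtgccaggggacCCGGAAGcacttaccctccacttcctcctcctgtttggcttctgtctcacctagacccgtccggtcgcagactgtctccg
SDHD was at 16.5, 30.5 and 20.2 FPKM in NC against 20.6, 20.8 and 22.8 FPKM in FGL1-OE, and was chosen for its window after its values were seen. A match of letters is not a bound site, and these data hold no measurement of binding.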

How the data were processed

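RNA-seq of TE1 cells was analysed in 3 NC and 3 FGL1-OE libraries, grouped by the genotype in the labels. The authors deposited FPKM values for each library, unscaled between libraries, for 12180 protein-coding genes and 33090 transcripts. The submitters' processing notes name StringTie and GRCh37, while versions, aligner and annotation are not given in the sources used here. The deposited group means, fold changes, p-values and q-values are the authors' own comparison and were not used. The tables hold no counts, so depth is unknown, and 0 columns lacked a known sample. A listed 0 may be a failed estimate.

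The R package limma 3.58.1 (R 4.3.3) was fitted by lmFit and eBayes to log2(FPKM + 1), after a filter at a mean of 0.5 FPKM, over all 12017 genes or 30330 transcripts, without covariates, with Benjamini-Hochberg adjustment over the whole table and a threshold of 0.05. Fold changes are on this scale, which understates those of low genes. The study's statistics section ties no test to the RNA-seq. For single genes an exact permutation test (two-sided) was run over the 20 splits. The code was tested on simulated data. Python 3.11.15 with pandas 2.3.3 computed the summaries.

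The members and lists were chosen with earlier results of these data known. Named genes were FGL1, every MT- gene, and for each complex the 2 most abundant nuclear genes and those with the largest rise and fall. Tissue forms, 7 genes of the lists and the most changed non-overlapping transcripts with an unadjusted p under 0.05 completed the rule. Other genes were named after their values were seen.

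GC content, length and coding sequence came from GENCODE v29 transcripts on GRCh38, matched by identifier for 97.7% of genes and all 91 members, and promoters from RefSeq on GRCh38.p14. Nuclear coordinates are those of the deposited tables on GRCh37. Alternatives were another pseudocount (0.1), the filter dropped or raised to 1 FPKM, 2 scalings, quantile normalization, a replicate block, an intensity trend, sums of the transcript table and leaving out each library. Removal of the GC and length trend by loess was added after seeing the data.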

Additional observations from a re-analysis of the deposited data

How the results depend on the processing

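No OXPHOS gene had an adjusted p under 0.05 in limma in any of the 15 alternatives, and FGL1 kept one in all, with log2 fold changes of 5.11 to 8.12. The number of OXPHOS genes with an unadjusted p under 0.05 was 0 higher and 0 lower, where 242 of 12017 genes had one. A pseudocount of 0.1 gave 1 lower, where 285 of 12017 genes had one in either direction. Removal of the GC and length trend, chosen after seeing the data, gave 1 higher and 1 lower gene, where 752 of 11786 genes had an unadjusted p under 0.05. It gave 16 transcripts in place of 8, and the counts over all transcripts under the alternatives are not given here. The log2 fold changes of MT-ND6 (-0.093), NDUFB7 (0.020) and UQCRQ (-0.055) were turned by this removal. Quantile normalization turned that of NDUFB7 (0.029). The cause was not tested. No scaling moved the median of all genes by over 0.1.

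Leaving out each library in turn gave 0 to 26 higher and 0 to 6 lower genes, 0 to 1 transcripts with an adjusted and 4 to 40 with an unadjusted p under 0.05. The upper ends were those without NC 2, where 11.2% of all genes were higher and 10.6% lower. The median log2 fold change ran from -0.12 to 1.04 for the mitochondrial genes, from 0.02 to 0.14 for the nuclear genes and from -0.12 to 0.21 for complex II, and the difference in mitochondrial share from -1.90 to 5.77 points around 1.28. Single genes crossed 0, with ranges of -0.23 to 1.17 for MT-CYB, -0.29 to 1.12 for MT-ND2, -0.20 to 1.16 for MT-ND5, -0.43 to 0.95 for MT-ND4, -0.042 to 1.04 for MT-ND1, -0.12 to 1.07 for MT-ATP6, -0.16 to 0.83 for MT-ND4L, -0.31 to 1.43 for MT-ATP8 and -0.29 to 0.20 for MT-ND6. Among nuclear genes the ranges were -0.53 to 0.27 for NDUFB7, -0.57 to 0.034 for NDUFB9, -0.38 to 0.27 for SDHC, -0.27 to 0.0011 for UQCRH, -0.26 to 0.25 for UQCRQ, -0.77 to 0.14 for UQCR11, -0.24 to 0.089 for COX6A1, -0.0044 to 0.38 for COX4I1, -0.14 to 0.017 for COX7A2, -0.12 to 0.47 for NDUFA4, -0.030 to 0.73 for ATP5J and -0.12 to 0.028 for ATP5G2. For TFAM, POLRMT and LRPPRC they were -0.021 to 0.64, -0.84 to 0.026 and -0.072 to 0.28.

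Same-numbered libraries had correlations of 0.345, 0.282 and -0.0614 in their deviations from the group means. NC 1 correlated best with FGL1-OE 1 and NC 2 with FGL1-OE 2, while NC 3 did not correlate best with FGL1-OE 3. Correlations among 3 libraries a group cannot decide whether the replicate numbers pair the samples. With the replicate number as a block, 0 OXPHOS genes and 10 transcripts had an unadjusted p under 0.05, where 298 of 12017 genes did. No call at an adjusted p under 0.05 changed.

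The unknown depth leaves counting error unmeasured, which matters most for genes near 1 FPKM such as ATP5S and UQCRHL. With 3 libraries a group and the spread of NC 1 and NC 2, the median SE of the mitochondrial genes was 0.52, and differences of up to 0.65 among them did not reach an unadjusted p under 0.05.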
